A study of Arabidopsis thaliana with 39 samples.

Results

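The removal of iron from the medium was examined in Arabidopsis thaliana roots as 1 factor, set across both phosphate levels and 3 harvest times. The comparison takes 18 arrays from roots without iron against 18 arrays from roots with iron, 36 of the 39 arrays in the series. The arrays were chosen by their titles, and the 3 arrays taken at the time of transfer were left out. Plants of the accession Columbia-0 (Col-0, wild type) grew for 10 days on full medium with 1 mM phosphate, and whole roots were collected 3, 6 or 9 h after a move to new medium. The side with iron holds roots moved to full medium and roots moved to medium without phosphate, with 3 arrays of each at each time. The side without iron holds roots moved to medium without iron and roots moved to medium without phosphate and without iron, again with 3 arrays of each at each time. All groups share the growth on full medium and the move itself. The labels number the replicates without saying whether they were separate cultures, so each p-value here rests on a spread between samples that may be technical.

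Iron is abundant in soil but poorly soluble, and Arabidopsis roots take it up by acidifying the surroundings, secreting coumarins, reducing ferric iron at the surface and importing ferrous iron. The bHLH transcription factor FIT drives these uptake genes. It acts with the small bHLH Ib factors, which lie under the bHLH factors ILR3, BHLH104, BHLH115, BHLH34 and BHLH121. The ligases BTS, BTSL1 and BTSL2 and the repressor PYE restrain the response, and the short IMA peptides promote it. Phosphate and iron meet in the root because phosphate binds iron, and low phosphate frees iron in the cell wall.

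The deposited values were taken as log2, since they ran from 0.186 to 12.8 over the 36 arrays, whose medians lay at 3.36 to 3.45. No label states the base, and every fold given here depends on it. Replicate 3 stood apart from replicates 1 and 2 in every group. The first principal component of the deviations from the group means (30.7% of their variance) ran from 18.5 to 47.7 for replicate 3 and from -30.8 to -5.5 for the others. The replicate number was therefore kept in the fit, as the comparison prescribes, beside time and phosphate. Of the 28501 rows, each a transcript cluster of the array, 16746 (58.8%) carry exactly 1 gene in the platform annotation and 10997 carry none. Rows without a gene are given by their cluster number.

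Removal of iron raised 13 rows (0.0456% of those tested) and lowered 5 (0.0175%), at a Benjamini-Hochberg adjusted p under 0.05 in limma. Together these 18 rows are 0.0632% of the rows. The sizes were modest, from 0.34 to 0.92 on the log2 scale, or 1.26-fold to 1.89-fold. The genes that rose included AT3G56360 and AT5G05250, both known as iron-deficiency-responsive genes in Arabidopsis, the sulfur-deficiency gene AT1G04770 (SDI2) and the glucosyltransferase gene GT72B1. Neither AT3G56360 nor AT5G05250 was in the prepared iron lists, and the 24 genes of those lists that could be read gave 0 calls. The gene with a name that fell was AT3G61117. In all, 8 of the 13 higher rows and 1 of the 5 lower rows carry exactly 1 gene, and the other 9 carry none. At an unadjusted p under 0.05 there were 1474 rows, near the 1425 that chance alone gives. Over all rows the median difference was -0.00165 and 48.9% of differences were positive.

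The count depended on which arrays were used. Without the 12 arrays of replicate 1, 2 or 3 the fit called 3, 0 and 7 rows, and every one of them was among the 18. With each array left out singly it called 13 to 28. The 28 came without replicate 1 of the 6 h roots lacking both nutrients, and 17 of the 18 rows were among them. The sign of each of the 18 rows was kept under every setting tried.

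AT3G56360, a gene of unassigned function in the annotation used here, had the lowest p among named genes. Its values without iron ran from 4.83 over a median of 5.56 to 5.97, and with iron from 4.21 over 4.79 to 5.55. The groups overlapped, but 9 of the 18 arrays without iron lay above the highest array with iron. The difference was 0.59 (SE 0.085, 1.5-fold, limma adjusted p = 0.000593). Paired by time, phosphate and replicate number, the array without iron was the higher in 18 of 18 pairs. At 3 h with phosphate present, the 3 arrays without iron read 5.67, 5.65 and 5.87, against 4.71, 4.67 and 5.03 in full medium. Every array without iron was above every array with iron in that comparison. It gave the largest difference of the 6 comparisons of 3 against 3 arrays, which ran from 0.35 to 0.93 for this gene.

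AT1G04770 (SDI2), whose protein belongs to the family of the sulfur-deficiency-induced regulators of glucosinolate synthesis, showed the largest rise among named genes. Its values ran from 4.01 over a median of 4.84 to 5.70 without iron and from 3.53 over 4.05 to 4.80 with iron, and 9 of 18 arrays without iron exceeded all arrays with iron. The difference was 0.73 (SE 0.12, 1.65-fold, limma adjusted p = 0.00367), and 16 of 18 pairs were higher without iron. At 9 h the 3 arrays without iron but with phosphate read 5.09, 5.70 and 5.29, against 3.70, 4.07 and 3.96 in full medium. With phosphate absent at 9 h the arrays without iron read 5.002, 4.38 and 4.91, against 4.18, 4.39 and 3.53. These 2 sets overlapped at a single array, whose value lay just below the highest one with iron.

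AT5G05250, also of unassigned function here, had low values, with a mean of 2.19, and 34.5% of all rows were dimmer. Its values ran from 1.78 over 2.36 to 3.49 without iron and from 1.33 over 1.88 to 2.36 with iron. The difference was 0.56 (SE 0.11, 1.47-fold, limma adjusted p = 0.0365), and 15 of 18 pairs were higher without iron. With phosphate present it was 0.81, 0.72 and 0.82 at 3, 6 and 9 h, and with phosphate absent 0.09, 0.25 and 0.67. The effect with phosphate was thus the larger at each time, but the difference between phosphate levels did not pass (unadjusted p = 0.0601, limma adjusted p = 1). Its call was lost in 18 of 36 fits that each left out 1 array (adjusted p up to 0.0845).

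**Figure D1:**
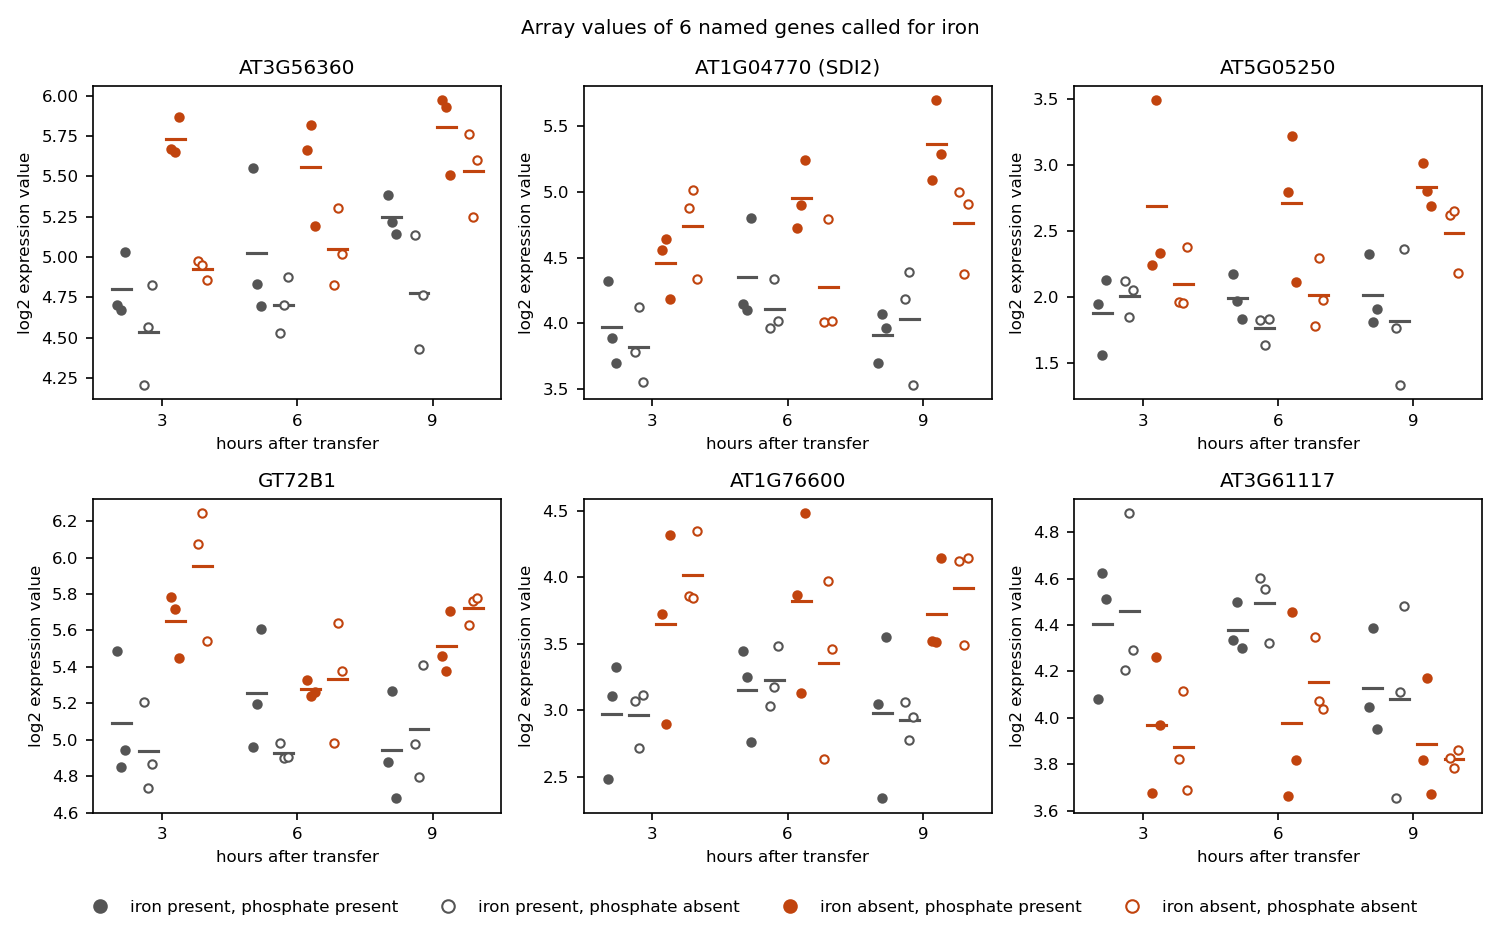
Log2 expression value of every array for 6 named genes called for iron, by hours after transfer. Points are arrays, short bars are means of 3 arrays, orange marks arrays without iron and grey those with iron, and open points mark absent phosphate. For AT3G56360 at 3 h the filled orange points (5.65 to 5.87) lie above the filled grey ones (4.67 to 5.03), and AT3G61117 is the gene of the 6 that fell.

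GT72B1 (AT4G01070) encodes a glucosyltransferase that conjugates phenolic compounds such as lignin monomers. It ran from 4.98 over 5.59 to 6.24 without iron and from 4.68 over 4.95 to 5.61 with iron, a difference of 0.54 (SE 0.094, 1.45-fold, limma adjusted p = 0.00841), and 17 of 18 pairs were higher. Its effect was smallest at 6 h, where full medium read 4.96, 5.19 and 5.61 and medium without iron 5.33, 5.24 and 5.26. Those groups overlapped. With phosphate absent at 3 h the arrays without iron read 6.08, 6.24 and 5.54 against 5.21, 4.73 and 4.87, and did not overlap.

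AT1G76600 rose by 0.71 (SE 0.13, 1.64-fold, limma adjusted p = 0.00841). Its values ran from 2.64 over 3.85 to 4.48 without iron and from 2.34 over 3.07 to 3.55 with iron. Of the arrays without iron 11 of 18 exceeded all arrays with iron, while 14 of 18 pairs were higher, the fewest among the 18 rows, shared with cluster 13433000. The other named genes that rose did so by less. AT1G01570 rose by 0.38 (1.3-fold), AT5G16010, of a steroid reductase family, by 0.34 (1.27-fold), and AT2G38250, a trihelix DNA-binding protein, by 0.34 (1.26-fold). The call of AT2G38250 was lost in 7 of those 36 fits (limma adjusted p up to 0.0621).

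AT3G61117 fell by 0.38 (SE 0.07, limma adjusted p = 0.0127). It ran from 3.66 over 3.85 to 4.46 without iron and from 3.65 over 4.33 to 4.88 with iron, and was lower without iron in 17 of 18 pairs. The ranges overlapped widely, with nearly equal lowest values, and 16 of 18 arrays without iron lay below the median with iron. It was lower without iron in each of the 6 comparisons of 3 against 3 arrays, by 0.24 to 0.58.

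**Figure D2:**
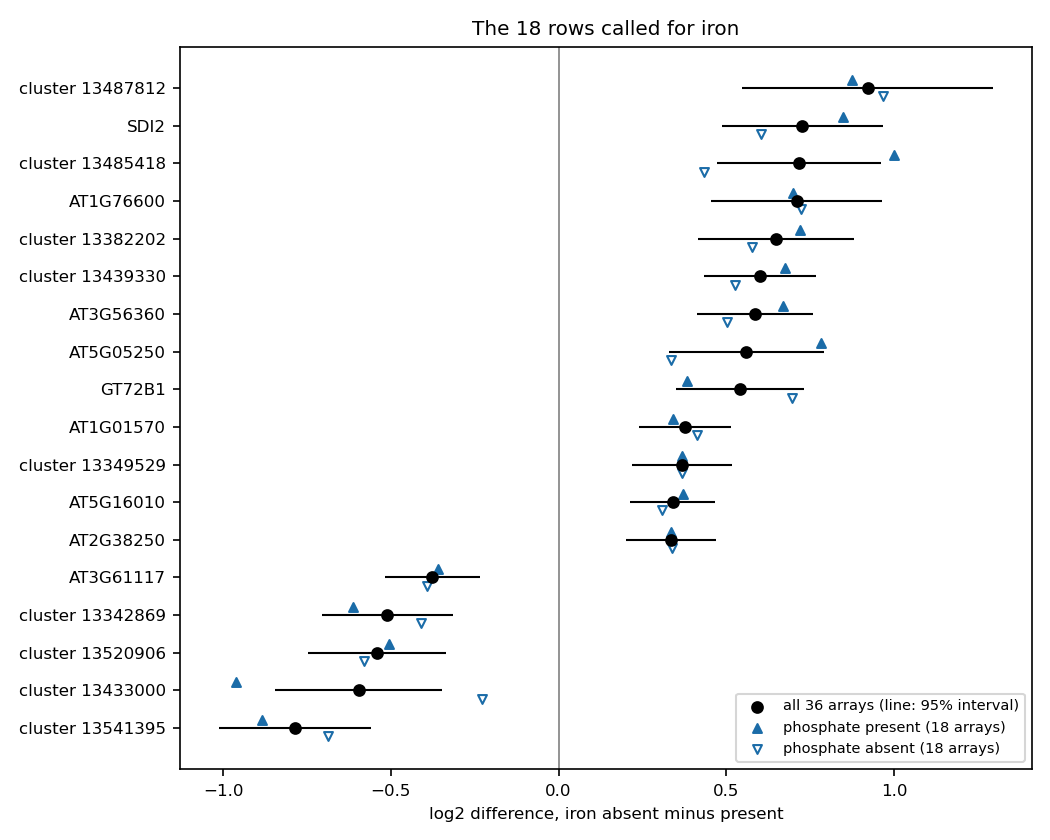
Log2 difference, iron absent minus present, of the 18 rows called. Black points are the estimate from all 36 arrays with the 95% interval as a line, and triangles are the estimates from arrays with phosphate (filled) and without it (open). For cluster 13433000 the 2 triangles lie at -0.96 and -0.23, the widest gap among the 18 rows.

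The largest difference and the lowest p belonged to rows without a gene name. Cluster 13487812 rose most, by 0.92 (SE 0.18, 1.89-fold, limma adjusted p = 0.0299). Its values ran from 6.14 over 7.28 to 8.35 without iron and from 5.28 over 6.44 to 7.04 with iron, and 11 of 18 arrays without iron exceeded every array with iron. Its call was lost in 18 of the 36 single-array fits (adjusted p up to 0.0668). Cluster 13439330 had the lowest p, with a rise of 0.60 (SE 0.082, limma adjusted p = 0.000494) and 18 of 18 pairs higher. Cluster 13541395 fell by 0.79 (SE 0.11, 1.72-fold, limma adjusted p = 0.000564) and was lower in 18 of 18 pairs, from 5.19 over 6.48 to 7.79 without iron against 6.50 over 7.05 to 8.50 with iron. This row also moved with time over all media. It fell by 1.38 between 3 and 9 h (limma adjusted p = 7.08e-09), a contrast that called 4.55% of all rows, while 6 h against 3 h called 2.15%.

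Clusters 13485418 and 13382202 rose by 0.72 and 0.65 and cluster 13349529 by 0.37. Clusters 13520906, 13342869 and 13433000 fell by 0.54, by 0.51 and by 0.60. The call of cluster 13349529 was lost in 11 of the 36 single-array fits (limma adjusted p up to 0.063), and that of cluster 13433000 in 25 (up to 0.0905). The 13 rows not named as losing a call kept it in all 36 of these fits.

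Phosphate was varied on the same 36 arrays, and its own coefficient in the same fit was read beside that of iron. It called 43 rows (0.151%). Of the iron rows, AT3G56360 changed by -0.44 without phosphate (limma adjusted p = 0.0112), beside 0.59 for iron. Cluster 13439330 changed by -0.39 for phosphate (adjusted p = 0.0319), beside 0.60 for iron. Clusters 13541395, 13520906 and 13433000 changed by 0.51, 0.60 and 0.59 for phosphate (adjusted p = 0.044, 0.00172 and 0.0282), beside -0.79, -0.54 and -0.60 for iron. These 5 rows are the iron rows that phosphate also called, and both coefficients come from the same arrays. At 3 h AT3G56360 stood at 4.80 ± 0.20 (SD, n = 3) in full medium, 5.73 ± 0.12 without iron, 4.53 ± 0.31 without phosphate and 4.93 ± 0.06 without both. SDI2 and GT72B1 changed by -0.21 and 0.03 for phosphate, which did not pass (adjusted p = 0.751 and 0.975).

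The iron effect was next taken at each phosphate level, as differences of means over sets of 18 arrays that share no array, with the spread estimated from all 36. With phosphate present the fit called 8 rows (0.0281%), of which 5 were higher and 3 lower. With phosphate absent it called 3 (0.0105%), all higher. Fitted on the 18 arrays of that level alone, limma called 0 rows with phosphate and 1 without, which was among the 3. The cause of the lost calls was not tested. SDI2 rose by 0.85 with phosphate (SE 0.14, limma adjusted p = 0.0188) and stood 0.61 higher without it (adjusted p not under 0.05), and GT72B1 was called without phosphate (0.70, SE 0.12, adjusted p = 0.0378) and stood at 0.38 with it. Beyond the 18 rows, AT5G38200 was lower by 0.56 without iron when phosphate was present (adjusted p = 0.0188) and stood at 0.02 when it was absent. AT5G22140, of an oxidoreductase family, was higher by 0.61 when phosphate was absent (adjusted p = 0.0378) and stood at 0.17 when it was present. Clusters 13466425 (0.97 with phosphate, 0.14 without) and 13439171 (0.05 and 0.60) were the other 2.

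The difference between the 2 iron effects was itself tested, and 0 rows passed (limma, 904 at an unadjusted p under 0.05). For AT5G38200 its unadjusted p was 0.000216, for AT5G22140 0.00657, for cluster 13466425 0.00168 and for cluster 13439171 0.000124, each with an adjusted p of 1. A different iron effect at the 2 phosphate levels was therefore not shown for any row. All 18 rows had the same sign at both levels, with a median size of 0.67 with phosphate and 0.47 without it. They were chosen on the sum of both, so this is a description.

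Rows picked at one phosphate level can be read at the other, where the arrays are different ones. Of the 100 rows with the lowest p with phosphate present, 79 had the same sign with phosphate absent, where their median difference in that direction was 0.12 against a median size of 0.38 where they were picked. Of the 100 rows picked with phosphate absent, 75 had the same sign with phosphate present, at 0.12 against 0.50. Over all rows 52.9% had the same sign, and Pearson's r across rows was 0.14. Between times, whose arrays also differ, the share was lower. Fewer arrays stand behind each time than behind each phosphate level (median SE 0.124 against 0.101), so the shares are not on equal terms. Of 100 rows picked at 6 h, 41 had the same sign at 3 h and 44 at 9 h, with medians of -0.025 and -0.011. Of 100 picked at 3 h, 66 had the same sign at 6 h and 66 at 9 h, and of 100 picked at 9 h, 71 had it at 3 h and 53 at 6 h. Pearson's r over all rows was -0.007 between 3 and 6 h, 0.125 between 3 and 9 h and -0.096 between 6 and 9 h. Rows are not independent, and all arrays were normalized together, so these figures carry no test. With single arrays left out, the count ran from 1 to 10 rows with phosphate and from 1 to 18 without it, and it moved by more than 1.5 times without 10 and 21 of the 36 arrays.

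**Figure D3:**
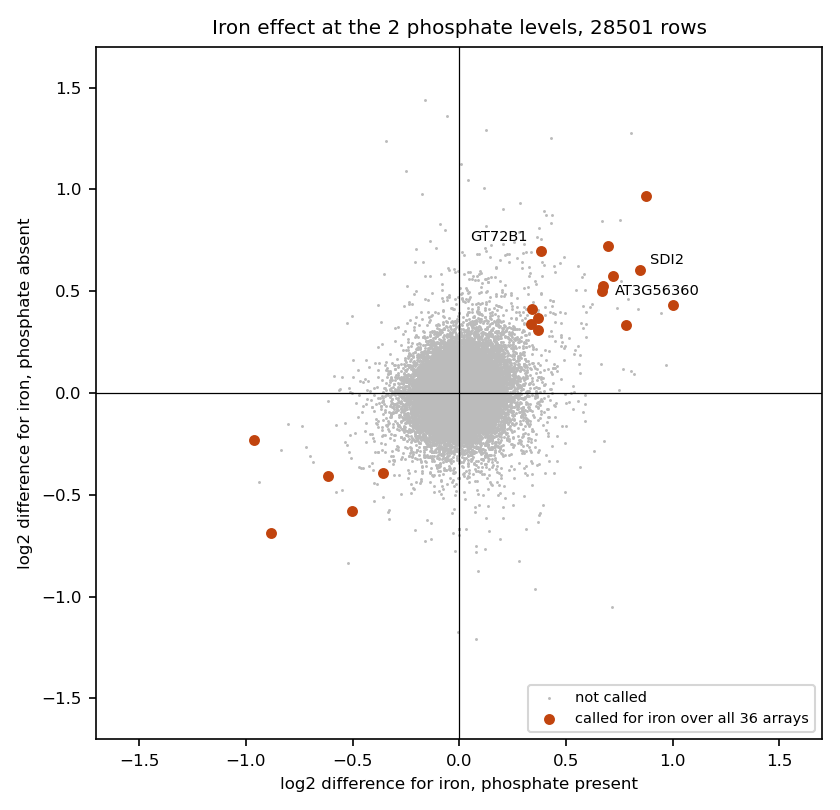
Log2 difference for iron with phosphate present (horizontal axis) and with phosphate absent (vertical axis) for 28501 rows, where each point is a row. The 18 rows called over all 36 arrays, in orange, lie where both differences have 1 sign, and Pearson's r over all rows is 0.14.

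At single times fewer arrays stand behind each value, and few rows passed. Limma gave 2056, 1142 and 1537 rows at an unadjusted p under 0.05 at 3, 6 and 9 h, beside the 1425 that chance alone gives. Rows are not independent, and these counts were not tested. At 3 h the fit called 1 row (0.00351%), the leucine-rich repeat receptor kinase gene AT5G25930, higher by 0.90 (SE 0.13, limma adjusted p = 0.00363). At 3 h it read 4.44, 3.86 and 4.01 without iron and 4.79, 4.70 and 4.31 without both nutrients. The arrays with iron read 3.36, 3.81 and 3.62 in full medium and 3.37, 3.20 and 3.303 without phosphate. Every array without iron was above every array with iron at 3 h. At 6 and 9 h its differences were 0.05 and 0.15 and did not pass, and over all times it was not called (0.37, adjusted p = 0.436).

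At 6 h the fit called 0 rows (limma, 1142 at an unadjusted p under 0.05). At 9 h it called 2 rows (0.00702%), SDI2, higher by 1.09 (SE 0.17, limma adjusted p = 0.0267), and cluster 13541395, lower by 1.08 (SE 0.19, adjusted p = 0.0426). Both calls were lost in a fit of the 9 h arrays alone, which called 2 other rows, and the single call at 3 h was lost in a fit of the 3 h arrays alone, which called 0. SDI2 stood at 0.71 at 3 h and 0.39 at 6 h. Among the 18 rows the median size was 0.66 at 3 h, 0.39 at 6 h and 0.64 at 9 h, and 12 rows were smallest at 6 h. In the medium without both nutrients at 6 h, clusters 13382202 and 13487812 stood at -0.02 and -0.21, the 2 values whose sign was opposite to that of the row. A change of the iron effect between times was tested with a moderated F test, which called 0 rows (limma, 1571 at an unadjusted p under 0.05, lowest adjusted p = 0.792). AT5G25930 had an unadjusted p of 9.45e-05 and cluster 13487812 one of 0.00861. Leaving out single arrays gave 1 to 12 rows at 3 h, 0 to 1 at 6 h and 0 to 5 at 9 h. It moved these counts by more than 1.5 times, or to or from 0, without 9, 3 and 28 of the 36 arrays.

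**Figure D4:**
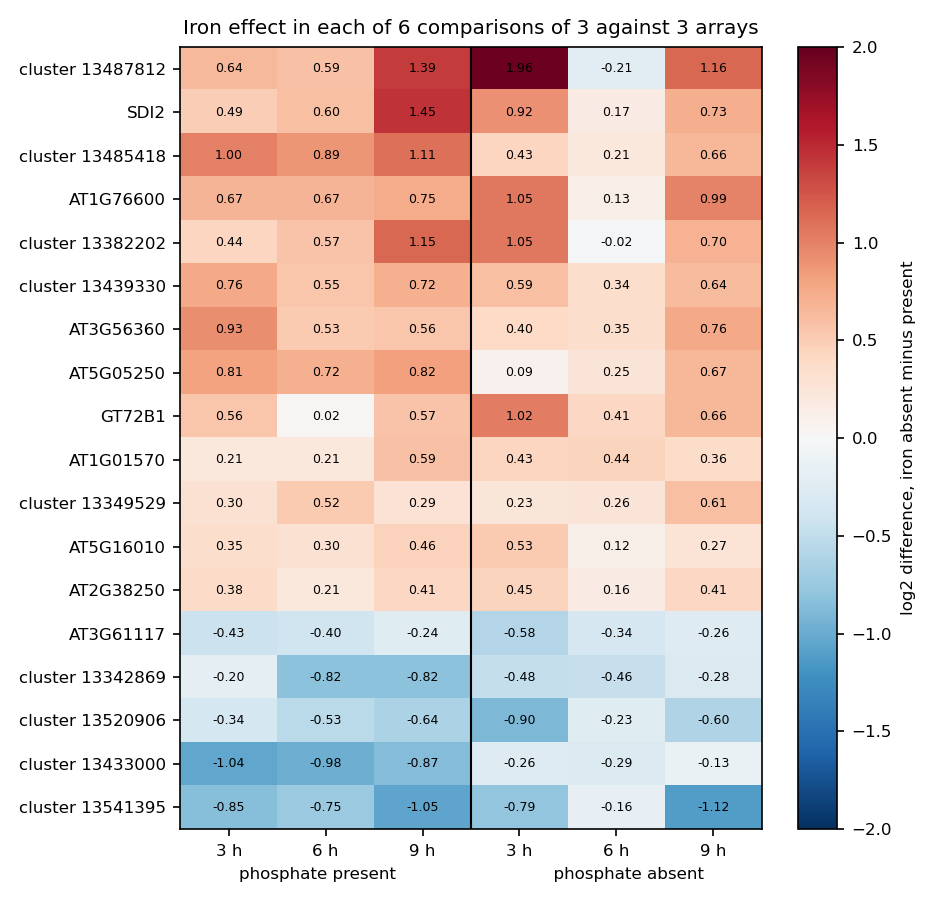
Log2 difference, iron absent minus present, of the 18 rows called, in each of 6 comparisons of 3 against 3 arrays (columns: hours after transfer at each phosphate level; the number in each cell is the difference). The values run from -1.12 to 1.96, and 16 of the 18 rows have 1 sign in all 6 columns.

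The measured genes of 3 prepared iron lists were not called. Of 73 genes in lists of iron uptake, iron regulators and peptides, and iron storage and movement, 24 have a row with exactly 1 gene. Limma called 0 of them, against 0.0632% of all rows, and 1 had an unadjusted p under 0.05. The median difference was 0.03 for uptake (5 of 23 genes measured), -0.004 for regulators and peptides (15 of 26) and -0.03 for storage and movement (4 of 24), beside -0.00165 over all rows. FIT, IRT1 and FRO2, the core of the uptake system, were not matched to a row with exactly 1 gene. A listed gene not measured in this sense may lie on a row without a gene name, and 9 of the 18 called rows carry none. Whether any of those rows is a listed gene is not known. Of the 24 genes, 9 lie on dim rows, with a mean below 1.84, the highest first quartile of any array. These are S8H, MTP8, BHLH101, IMA1, IMA2, BHLH18, BHLH19, VTL3 and VTL4. Values this low say little about a change in these 9 genes, and their intervals cover the spread between arrays only.

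Among uptake genes, the coumarin hydroxylase S8H (AT3G12900) stood at 0.11 (95% interval -0.05 to 0.27), the coumarin glucosidase BGLU42 at 0.03 and the metal transporter ZIP9 at 0.08. The coumarin synthase COSY (AT1G28680) stood at -0.03 and the vacuolar metal transporter MTP8 (AT3G58060) at -0.05. The intervals of these 5 genes lay between -0.17 and 0.28.

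Of the regulators, the bHLH Ib factor BHLH101 stood at 0.07 (interval -0.06 to 0.20), the repressor PYE at -0.04 (-0.20 to 0.13), and the ligases BTSL1 and BTSL2 at 0.06 and -0.05. The activators ILR3, BHLH104, BHLH115, BHLH34 and BHLH121 stood at -0.05, -0.01, 0.02, 0.05 and -0.10. The bHLH factors BHLH18, BHLH19, NAI1 and BHLH25, which act on FIT, stood at -0.08, 0.05, -0.004 and -0.16. In storage and movement, the mitochondrial iron transporters MIT1 and MIT2 stood at 0.03 and 0.01, and the vacuolar iron transporter-like genes VTL3 and VTL4 at -0.08 and -0.13. None was called, and the intervals of these regulators and transporters lay between -0.351 and 0.268.

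IMA2 (AT1G47395), which encodes a short peptide that raises iron uptake, had the largest value of the 24, at 0.29 (SE 0.14, unadjusted p = 0.0454, limma adjusted p = 0.957). Its row is dim, from 1.01 over 1.67 to 3.54 without iron and from 1.00 over 1.46 to 2.35 with iron. Its differences were 0.09, 0.01 and 0.76 at 3, 6 and 9 h. At 9 h it read 3.54, 2.05 and 1.95 without iron against 1.75, 1.24 and 1.53 in full medium, and 2.14, 1.68 and 1.66 without both nutrients against 1.41, 1.16 and 1.35 without phosphate. At each phosphate level the arrays without iron lay above those with iron, but the difference at 9 h was not called over all rows. IMA1 stood at 0.11 (interval -0.04 to 0.25) on a row whose values reached at most 2.09.

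**Figure D5:**
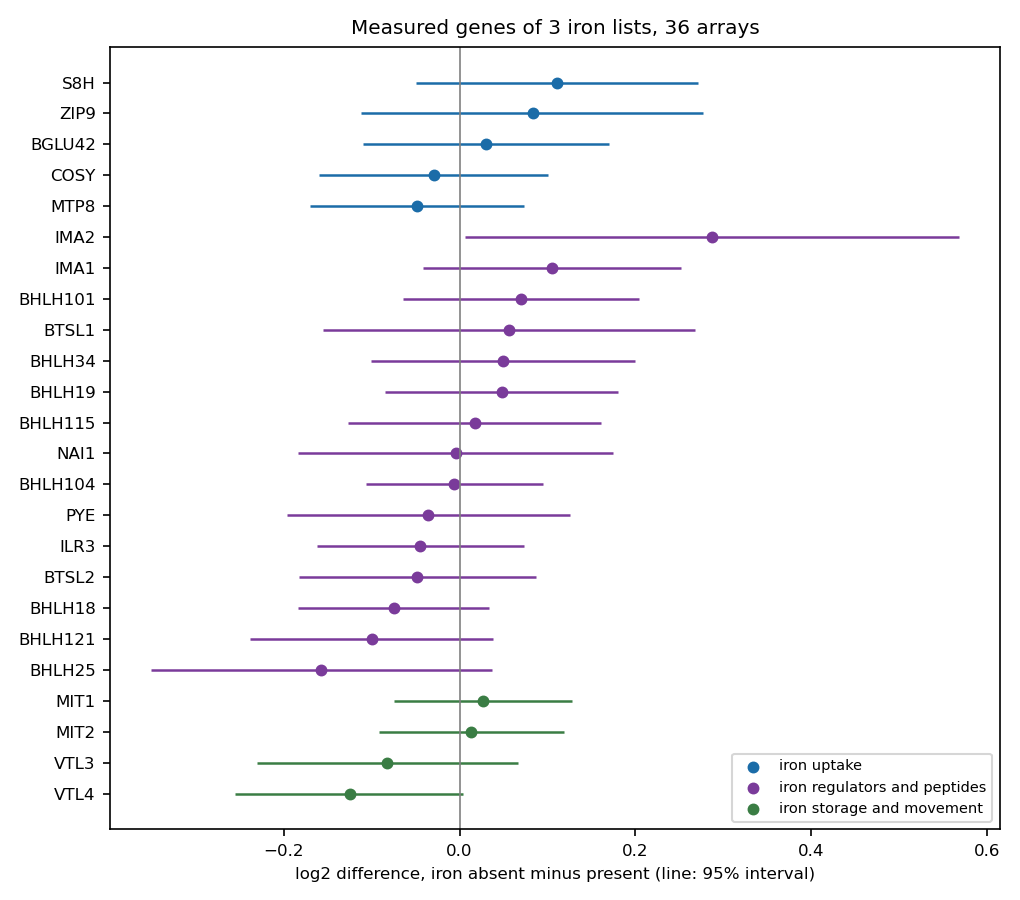
Log2 difference, iron absent minus present, over 36 arrays for the 24 measured genes of 3 iron lists. Points are estimates and lines 95% intervals, coloured by list. IMA2 is highest at 0.29, and none of the 24 was called over all rows.

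AT3G56360 and AT5G05250 had not been placed in these lists. After their values were seen, 5 further genes known to respond to iron deficiency in Arabidopsis were looked up, of which 4 were measured. AT2G14247 stood at 0.05, the defensin-like gene AT1G13609 at 0.01, the kelch-repeat gene AT3G07720 at -0.005 and AT1G12030 at 0.003. None of these 4 was called, against 0.0632% of all rows.

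In the sulfur list, 5 of 27 genes were measured and 1 was called, SDI2, against 0.0632% of all rows. The ATP sulfurylase genes ATPS3 and ATPS4, the entry step of sulfate assimilation, stood at -0.21 and -0.04, the sulfite reductase SIR at 0.05 and the glucosidase BGLU28, a sulfur-deficiency marker, at -0.04. The median of the 5 was -0.04, beside the -0.00165 of all rows. The LSU and APR genes and the sulfate transporters were not matched to a row with exactly 1 gene.

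The other lists gave 0 calls, against 0.0632% of all rows. So few measured genes cannot tell a list from that share. In the local phosphate list (5 of 13 measured) the citrate transporter MATE (AT1G51340) stood at -0.45 (SE 0.19, unadjusted p = 0.0222, limma adjusted p = 0.915) and the ferroxidase LPR1 at 0.16 (adjusted p = 0.975). Among class III peroxidases (12 of 17 measured, median -0.08) PER5 stood at -0.35 and PER39 at 0.18. The glutathione reductase GR1 stood at 0.19 and the zinc-finger factor ZAT10 at 0.27 (2 of 11 measured). In the iron-sulfur cluster list (4 of 23 measured, median 0.07) the scaffold proteins HCF101 and ISU1 stood at 0.18 and 0.07. The zinc transporter ZIP6 and the copper chaperone CCS stood at -0.09 and 0.03 (2 of 24). In the phenylpropanoid list (5 of 13, median -0.12) HCT stood at 0.13 and BGLU23 at 0.06. These were its 2 positive members, and the 3 negative ones reached -0.21. In the auxin and ethylene list (3 of 12) GH3.3 and WES1 stood at 0.14 and 0.05. Of the clock genes (2 of 12) COR28 and GI stood at 0.04 and 0.02. None of the systemic phosphate (24), suberin (10) and nitrate (5) genes was matched to a row with exactly 1 gene, so none could be read by name. The 4 measured reference genes ranged from -0.07 to 0.00.

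By the rule for naming genes, the next named rows in order of p were AT5G57010, a calmodulin-binding family member, at 0.58 (limma adjusted p = 0.051) and AT2G43120, of the pirin family, at 0.44 (adjusted p = 0.103). On the lower side AT1G19550, of the dehydroascorbate reductase family, stood at -0.39 (adjusted p = 0.168), AT1G60750, of the aldo-keto reductases, at -0.49 and AT4G40070, a RING-type ligase, at -0.42 (adjusted p = 0.317 and 0.413). AT3G29830, AT4G17790, AT1G19170, AT3G10915, AT3G03160 and AT2G46300 stood between -0.15 and -0.28. None of these passed. AT5G57010 lay just outside the threshold and AT5G05250 just inside it among named genes.

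The tissue label was read against markers. The root hair expansin EXPA7, the single measured gene of 13 root cell type markers, ran from 4.14 to 5.91 without iron and from 4.21 to 5.67 with iron, above the array medians in both. The root-rich glucosidase BGLU23 ran from 11.1 to 11.7 over both sides. The shoot genes RCA and LHCB4.1 (2 of 7 measured) were also read, RCA from 5.69 to 8.36 without iron and from 5.68 to 8.24 with iron and LHCB4.1 from 4.02 to 6.86 and from 4.31 to 6.51. Their iron differences were 0.13 and -0.01 (limma adjusted p = 1 for each), and both genes lay above the array medians on both sides. At 3 h they stood at 0.45 and 0.27, and their part in the results at 3 h was not tested.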

How the data were processed

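Root RNA was measured on whole-transcript arrays, 1 array per sample. The deposited values are log2 expression per transcript cluster. Per the submitters' processing notes, the authors used GCRMA, the Transcriptome Analysis Console and Affymetrix Expression Console, named without versions. The log base is not stated and was inferred from the values. The table was used as deposited, with all 28501 rows. Rows were named through the platform annotation, and symbols through gene numbers in RefSeq TAIR10.1 (16601 of 16746 rows with 1 gene matched). Listed genes were matched by locus to rows with exactly 1 gene (71 of 291 measured), taking the row of highest mean.

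The 36 arrays entered 1 additive model of iron, phosphate, time and replicate number (limma 3.58.1, R 4.3.3, lmFit and eBayes, 29 residual degrees of freedom). Effects within a phosphate level or time, and their differences, came from a model with a mean for each of the 12 groups plus replicate number. P-values were adjusted over all rows of a contrast, with calls at an adjusted p under 0.05. Intervals are 95%. The fit was also run on values simulated from its own additive model with independent errors, which cannot check that model against the real arrays. The number of arrays limits the precision, with a median SE of 0.0713 for iron.

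Genes named are all called rows, the 10 of each sign with the lowest p among rows with 1 gene, rows called in a part of the comparison, measured members of the iron and sulfur lists and 2 of any other list. Members and lists were chosen with earlier results of these data known. Reference sequences were not used here.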

Additional observations from a re-analysis of the deposited data

How the results depend on the processing

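The replicate number pairs the arrays only in part. Deviations from the group means correlated at 0.262 on average across groups where the number was shared (lowest pair -0.175). Where it was not shared they averaged -0.129, which follows largely from the centring, since deviations within a group cancel. The nearest array had the same number for 32 of 36. With no replicate block the iron comparison called 15 rows in place of 18, all among the 18, and the effect with phosphate called 4 in place of 8. A random block called 20.

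No row reversed. For iron over all arrays, quantile normalization, brighter rows alone, trended robust eBayes and a mean per group called 16, 16, 16 and 26 rows, array quality weights 30, and rows with 1 gene alone 9, where fewer rows were tested. Rows with 1 gene alone gave 3 with phosphate, 5 at 3 h and 1 at 9 h. Array weights gave 5 without phosphate, 5 at 3 h and 5 at 9 h, brighter rows alone 8 at 3 h, and the arrays of the level or time alone 0 with phosphate, 1 without, 0 at 3 h and 2 at 9 h, of which 0 were among the 2 reported. Leaving out single arrays or all 12 of a replicate number gave 0 to 28 rows for iron, 0 to 10 with phosphate, 0 to 18 without, 0 to 12 at 3 h, 0 to 1 at 6 h and 0 to 5 at 9 h. The cause of these shifts was not tested. Both interactions called 0 rows under every setting. Of the 18 rows, 11 kept their call under every setting that tested them with all 3 replicate numbers.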
